A study of Homo sapiens with 12 samples.

Results

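The 10 Mb of chromosome 8 around the gene of the long non-coding RNA SLEAR were examined for peaks of chromatin isolation by RNA purification (ChIRP-seq), leaving out the gene itself. Peaks counted as members when their summit lay between 97 and 107 Mb on build hg19 and outside 102 to 102.15 Mb, the 150 kb window that holds the gene. This gave 2788 peaks in 9 peak lists, of 761751 peaks on chromosomes 1 to 22 and X. Membership depends on position alone, but the stretch and the measures were chosen with earlier results of these data known. They came from 3 lists made with odd probes (986 peaks), 3 made with even probes (1154 peaks) and 3 made with lacZ probes (648 peaks). All cells were Jurkat, an established human T-cell leukaemia line, and all had been made to express SLEAR stably, including those used with lacZ probes. The odd and even probes are disjoint sets of oligonucleotides against SLEAR, and the lacZ probes target a bacterial RNA that human cells lack. The 3 input samples were not analysed here, and the labels do not say whether replicates came from separate cultures.

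In ChIRP, chromatin is crosslinked, an RNA is pulled down with biotinylated oligonucleotides, and the attached DNA is sequenced. Some long non-coding RNAs act in cis: Xist spreads from its own gene along the X chromosome, and shorter-range RNAs stay near the gene that makes them. Others leave the locus and contact chromatin elsewhere. An RNA that spreads in cis would give more peaks, or taller ones, near its gene, shared by both probe sets but absent with the control probes. SLEAR lies between YWHAZ, which encodes an adaptor protein that binds phosphorylated partners, and ZNF706, which encodes a zinc finger protein, in the order of the RefSeq table for GRCh38. That table follows another build than the lists, so no gene names were given to single peaks. The labels do not say where in the genome the stably expressed copy of SLEAR lies, so transcription at the gene on chromosome 8 and from another site cannot be told apart.

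The lists held 66336, 105957 and 117145 peaks with odd probes, 94119, 90179 and 124191 with even probes, and 46560, 90804 and 26460 with lacZ probes, on chromosomes 1 to 22 and X. Their lengths differed by replicate as well as by probe, and lacZ replicate 3 was the shortest. The read depth behind a list is unknown. Each measure below was therefore first taken as a ratio or difference within a list, between the neighbourhood and the rest of chromosome 8 or between near and far peaks, and only then compared between the 6 probe lists and the 3 lacZ lists. Tests were exact permutation tests, two-sided, over all 84 choices of 3 lists out of 9, so that 0.0119 is the smallest p possible. There were 7 such measures, and p-values were also adjusted over them by the Benjamini-Hochberg method.

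Peaks were about as dense around the SLEAR gene as on the rest of chromosome 8, and the control probes had the higher relative density. In the neighbourhood the odd lists held 23.25, 36.2 and 40.6 peaks per Mb, the even lists 35.7, 34.5 and 46.9, and the lacZ lists 18.7, 36.2 and 10.9. On the rest of chromosome 8 the odd lists held 23.4, 37.85 and 42.2 peaks per Mb, the even lists 33.1, 33.1 and 45.5, and the lacZ lists 17.1, 33.15 and 9.80. The neighbourhood thus stood slightly below the rest of the chromosome in each odd list and slightly above it in each even and each lacZ list. The ratio of neighbourhood to rest was 0.970 ± 0.0189 with odd probes, 1.05 ± 0.0252 with even probes and 1.10 ± 0.00928 with lacZ probes (SD, n = 3 each).

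All 6 probe lists lay below all 3 lacZ lists in this ratio. The log2 ratio was 0.014 ± 0.069 in probe lists (SD, n = 6) and 0.135 ± 0.012 in lacZ lists (SD, n = 3), a difference of -0.12 (exact permutation p = 0.0238, adjusted p = 0.167 over the 7 measures). The difference was opposite in sign to an excess of probe peaks around the gene, and it did not pass 0.05 after adjustment. Without each replicate number in turn it ranged from -0.14 to -0.10, where 15 arrangements cannot give a p below 0.0667.

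With near set at 1 Mb, density was higher near the gene than farther out with every probe set, lacZ included. Within 1 Mb of the edges of the gene window, relative to 1 to 5 Mb, the log2 ratio was 0.260 ± 0.096 with odd, 0.226 ± 0.115 with even and 0.260 ± 0.136 with lacZ probes (SD, n = 3 each). It was above 0 in 6 of 6 probe lists and in 3 of 3 lacZ lists. The difference between probe and lacZ lists was -0.017 (exact permutation p = 0.833, adjusted p = 0.964). With the limit at 0.5 Mb the log2 ratio was 0.15 ± 0.27 in probe lists (SD, n = 6). In lacZ lists it was then -0.097 ± 0.11 (SD, n = 3), a difference of 0.24 (exact permutation p = 0.179). The slope of log2 density over distance was -0.036 ± 0.025 per Mb in probe lists and -0.037 ± 0.045 per Mb in lacZ lists, a difference of 0.0012 (exact permutation p = 0.964, adjusted p = 0.964). A steeper fall of probe density than of lacZ density was thus not detected. In lists of equal length the slope was -0.049 ± 0.050 per Mb in probe lists and 0.041 ± 0.028 per Mb in lacZ lists. The slopes thus differed in sign, by -0.090 per Mb (exact permutation p = 0.0357, not adjusted).

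**Figure D1:**
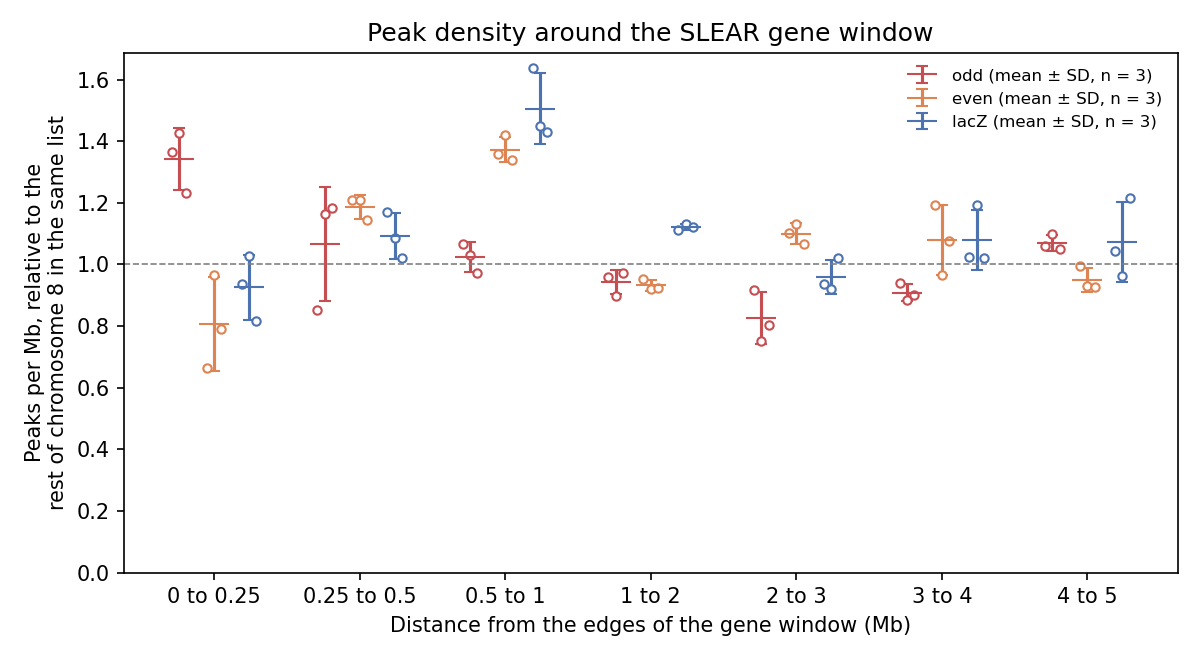
Peaks per Mb in 7 steps of distance from the edges of the gene window, divided by the peaks per Mb on the rest of chromosome 8 in the same list, for odd, even and lacZ lists (points: lists; bars: mean ± SD, n = 3; dashed line: equal density). From 0.5 to 1 Mb odd lists average 1.02 and even lists 1.37, below 1.505 in lacZ lists, and only the first step has the odd lists on top.

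The step next to the gene window differed between the probe sets. Within 0.25 Mb the odd lists held 16, 27 and 26 peaks, the even lists 11, 16 and 18, and the lacZ lists 8, 17 and 4. Relative to the rest of chromosome 8 this was 1.34 ± 0.1002 with odd, 0.807 ± 0.152 with even and 0.926 ± 0.105 with lacZ probes (SD, n = 3 each). Each odd list lay above every even and lacZ list in this step, whereas each even list lay at or below 0.966. Of the odd peaks there, 13, 21 and 22 were on the side of higher coordinates. From 0.5 to 1 Mb the odd lists were the lowest, with 1.02 ± 0.0486 for odd, 1.37 ± 0.0411 for even and 1.505 ± 0.115 for lacZ lists. These steps were looked at singly after their values were seen, and they were not tested.

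The members closest to the window give a view of its borders. Below the window the last odd summit lay 121.6 kb away in each of the 3 odd lists, with a pileup of 94, 170 and 110 fragments. The last even summit lay 50.15, 50.17 and 5.78 kb away, with a pileup of 205, 179 and 13, and the last lacZ summit 3.10, 3.09 and 151.4 kb away, with a pileup of 29, 66 and 32. Above the window the first odd summit lay 15.94, 15.99 and 16.01 kb away, with a pileup of 24, 52 and 22. The first even summit lay 108.4, 51.5 and 23.75 kb away, with a pileup of 112, 13 and 8, and the first lacZ summit 106.8, 32.4 and 106.8 kb away, with a pileup of 35, 7 and 29. The nearest odd summits recurred at the same place in all 3 lists, on both sides. The pileup was read as the coverage by fragments at a summit. No scaling to depth is stated, so these values describe each list alone.

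Within the gene window the picture was another one. The highest pileup there was 1121, 3238 and 1559 in odd lists, 2221, 2955 and 1626 in even lists, and 108, 280 and 54 in lacZ lists. In the neighbourhood the highest pileup was 385, 1055 and 504 in odd lists, 501, 780 and 338 in even lists, and 221, 545 and 121 in lacZ lists. In every probe list the highest peak outside the window thus stayed below that inside it, and in every lacZ list it was the other way round. The rest of chromosome 8 reached 576, 971 and 701 with odd, 993, 1173 and 562 with even, and 414, 1063 and 212 in lacZ lists.

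Peak counts in bins of 1 Mb were compared between probe and lacZ lists over the genome to place the neighbourhood among other stretches. In limma's moderated test on log2 of the count per 10000 peaks of a list, 0 of the 10 bins of the neighbourhood were higher with probes and 3 were lower at an adjusted p below 0.05. Over all 2871 bins tested, 39.4% were called, 18.3% higher and 21.1% lower with probes. Without replicate 1 only 15.9% of the bins were called, 456 in all, and 2 of the 10 around the gene. At an unadjusted p below 0.05 there were 4 such bins in the neighbourhood, all 4 lower with probes. A count of 0 out of 10 allows a share of up to 30%, so this number of bins cannot be told from the 18.3% of the genome. Of the other 134 bins of chromosome 8, 18 were higher and 32 lower.

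The lowest of the 10 bins ran from 100 to 101 Mb. It held 17, 29 and 32 peaks in odd lists, 21, 20 and 35 in even lists, and 24, 35 and 12 in lacZ lists. Relative to the length of the lists this was a log2 difference of -0.83 ± 0.12 (SE; limma, adjusted p = 0.000328), in a range from -1.23 to 1.41 over the other bins of chromosome 8. The bins from 105 to 106 Mb and from 106 to 107 Mb were also lower, by -0.49 ± 0.12 (limma, adjusted p = 0.00673) and -0.37 ± 0.13 (limma, adjusted p = 0.0342). The second of them was no longer called without replicate 1 (-0.45) or without replicate 3 (-0.22). With only the peaks at or above the median fold of their list, the bin from 100 to 101 Mb was not called either (-0.14). The 2 bins at the gene were not called. From 101 to 102 Mb the difference was -0.25 ± 0.10 (limma, adjusted p = 0.0706), and with only the peaks at or above the median fold this bin was called lower, at -0.49. For odd lists alone against lacZ it was also lower, by -0.36 (limma, adjusted p = 0.0278), and for even lists alone it was -0.13 (limma, adjusted p = 0.405). From 102 to 103 Mb, without the gene window, the difference was -0.14 ± 0.11 (limma, adjusted p = 0.317). The bins with the highest values, 0.25 ± 0.14 and 0.21 ± 0.12, started at 98 and 103 Mb and were not called (limma, adjusted p = 0.169 and 0.166). For even lists alone against lacZ the bin at 103 Mb was higher, by 0.39 (limma, adjusted p = 0.0374). With odd lists alone it was 0.031 (limma, adjusted p = 0.877). Without replicate 2 the bin at 98 Mb was called higher, at 0.48, and without replicate 3 it was at 0.081. With only the peaks at or above the median fold the bins at 98 and 103 Mb changed sign, to -0.16 and -0.076. The median over the 10 bins was -0.11, against -0.047 over the rest of chromosome 8 and -0.032 over all bins.

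**Figure D2:**
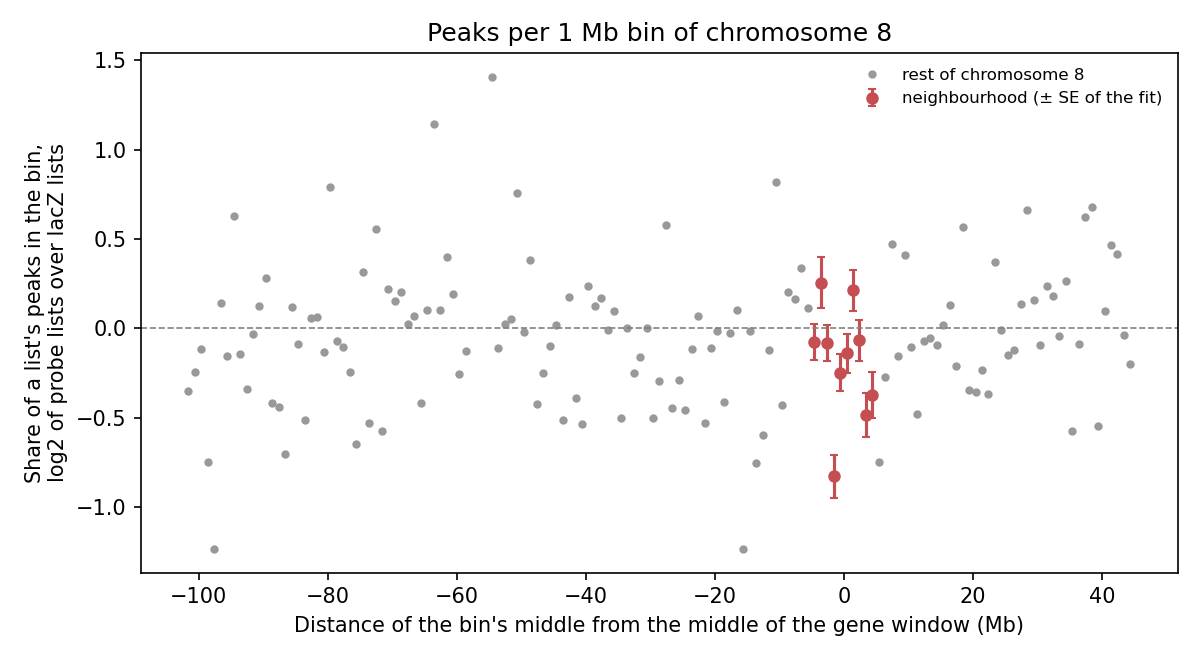
Log2 of the share of a list's peaks that fall in a 1 Mb bin of chromosome 8, probe lists over lacZ lists, against the distance of the bin's middle from the middle of the gene window in Mb (red: the 10 bins of the neighbourhood with the SE of the fit; grey: the other 134 bins). The red points run from -0.83 to 0.25 and lie within the range of the grey ones, from -1.23 to 1.41.

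Summit pileup was compared in the same way, since peaks can differ in height without differing in number. The median pileup in the neighbourhood was 26, 31 and 19 fragments in odd lists, 28, 32 and 21 in even lists, and 25.5, 26 and 23 in lacZ lists. On the rest of chromosome 8 it was 25, 31 and 19 with odd, 30, 31 and 20 with even, and 24, 24 and 22 in lacZ lists. The medians of neighbourhood and rest were within 2 fragments of each other in all 9 lists. The log2 ratio was 0.012 ± 0.062 in probe lists (SD, n = 6) and 0.089 ± 0.026 in lacZ lists (SD, n = 3), and the groups overlapped. The difference of -0.077 did not pass the test (exact permutation p = 0.0833, adjusted p = 0.194).

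Peaks within 1 Mb of the window were taller than those at 1 to 5 Mb in all 9 lists. The log2 ratio of the medians was 0.163, 0.047 and 0.112 in odd lists, 0.650, 0.341 and 0.193 in even lists, and 0.082, 0.111 and 0.202 in lacZ lists. Even replicates 1 and 2 lay above every lacZ list, and the odd lists lay among the lacZ lists or below them. The difference between probe and lacZ lists was 0.12 (exact permutation p = 0.488, adjusted p = 0.683). The slope of log2 pileup over distance was negative in 6 of 6 probe lists and in 2 of 3 lacZ lists, with -0.043 ± 0.040 per Mb in probe lists and -0.012 ± 0.047 per Mb in lacZ lists, a difference of -0.031 (exact permutation p = 0.405, adjusted p = 0.683).

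The result for pileup depended on where near ended. With the limit at 2 Mb the log2 ratio was 0.20 ± 0.15 in probe lists (SD, n = 6) and -0.13 ± 0.28 in lacZ lists (SD, n = 3), a difference of 0.33 (exact permutation p = 0.0119, the smallest that 84 choices allow). With the limit at 0.5 Mb the difference was 0.022 (exact permutation p = 0.940). Between 1 and 2 Mb the median pileup was 1.07 ± 0.0160 of the rest of chromosome 8 with odd and 0.967 ± 0.0333 with even probes, against a low 0.840 ± 0.107 with lacZ probes (SD, n = 3 each). Between 3 and 4 Mb the odd and even lists were low, at 0.842 ± 0.0719 and 0.781 ± 0.105, against 1 ± 0.0417 in lacZ lists.

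The tallest step was next to the window in even lists. Within 0.25 Mb the median pileup of even lists was 76, 46.5 and 38 fragments, 1.98 ± 0.521 of the rest of chromosome 8, over 11, 16 and 18 peaks. Odd lists had a median of 29, 29 and 22 there, 1.08 ± 0.129 of the rest, and lacZ lists 32, 28 and 30.5, 1.30 ± 0.115 of the rest (SD, n = 3 each). All 3 even lists lay above all odd and lacZ lists in this step. The odd set, which targets the same RNA, lay below lacZ on average. The step was chosen after its values were seen and was not tested.

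**Figure D3:**
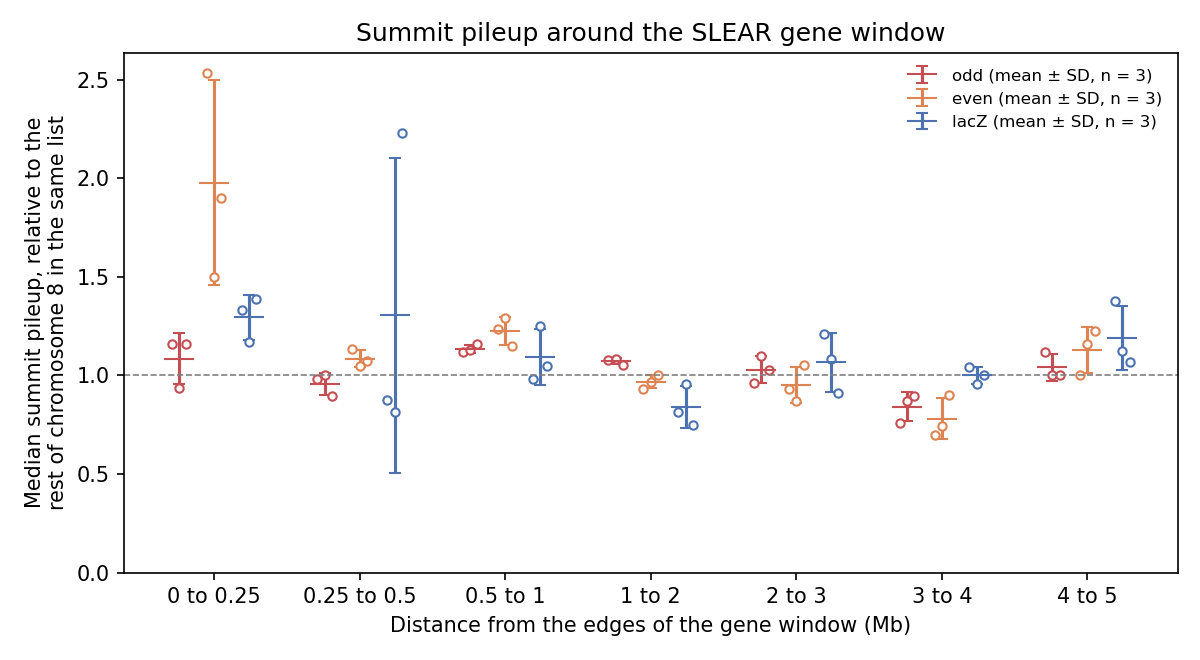
Median summit pileup in 7 steps of distance from the edges of the gene window, divided by the median on the rest of chromosome 8 in the same list, for odd, even and lacZ lists (points: lists; bars: mean ± SD, n = 3; dashed line: equal pileup). Even lists stand at 1.98 within 0.25 Mb, and beyond 0.5 Mb the mean of each set stays between 0.781 and 1.225.

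Overlap between odd and even peaks is the usual check of a ChIRP site. In the neighbourhood more odd peaks met even peaks than on the rest of the chromosome, and more lacZ peaks met even peaks as well. A peak counted as shared when it overlapped, by 1 base or more, a peak in at least 2 of the 3 lists of the other set. In odd replicate 1, 18 of 229 peaks of the neighbourhood met the even set, 7.86% (Wilson 95% interval 5.03% to 12.1%). In odd replicate 2 it was 22 of 357, 6.16% (4.10% to 9.15%), and in odd replicate 3 22 of 400, 5.50% (3.66% to 8.19%). On the rest of chromosome 8 the shares were 4.19%, 4.004% and 3.91% in these lists. All 3 odd lists were higher in the neighbourhood, but lists of 1 set share many of their peaks. The intervals cover counting error only.

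The even lists showed the same direction with smaller steps. Of their peaks in the neighbourhood, 4.83%, 5.59% and 4.76% met the odd set, against 4.10%, 4.05% and 3.73% on the rest of chromosome 8. With lacZ lists the direction differed between the partner sets. Their peaks met the even set in 3.80%, 4.76% and 3.74% of cases in the neighbourhood, against 2.63%, 2.90% and 2.60% on the rest. They met the odd set in 2.72%, 3.64% and 1.87% of cases, against 3.90%, 3.76% and 4.29%. Odd peaks met the lacZ set in 1.75%, 1.12% and 0.75% of cases in the neighbourhood, below 2.34%, 2.002% and 2.025% on the rest. Even peaks met it in 1.70%, 2.06% and 1.95% of cases, above 1.18%, 1.27% and 1.5%.

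The gain in overlap, neighbourhood minus rest, was 1.79 ± 1.04 percentage points in probe lists (SD, n = 6). In lacZ lists, taken as the mean over both partner sets, it was 0.076 ± 0.762 points (SD, n = 3). The difference was 1.71 points (exact permutation p = 0.0476, adjusted p = 0.167 over the 7 measures), with 5 of 6 probe lists above every lacZ list. It did not pass 0.05 after adjustment. The partner set of a list follows from its label, so the lists were not exchangeable for this measure. Odd and even lists also count the same shared places from both sides, so the 6 probe values are not independent. The p-values for this gain, here and below, are therefore only a guide. When the lacZ lists were matched to the even set alone, a choice made after the data had been seen, their gain was 1.39 ± 0.411 points and the difference 0.40 points (exact permutation p = 0.631). Matched to the odd set alone, their gain was -1.24 ± 1.15 points and the difference 3.03 points (exact permutation p = 0.0119, the smallest that 84 choices allow). In lists of equal length the difference was 2.41 points (exact permutation p = 0.0119). Without lacZ replicate 3 it was 1.35 points (exact permutation p = 0.179).

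**Figure D4:**
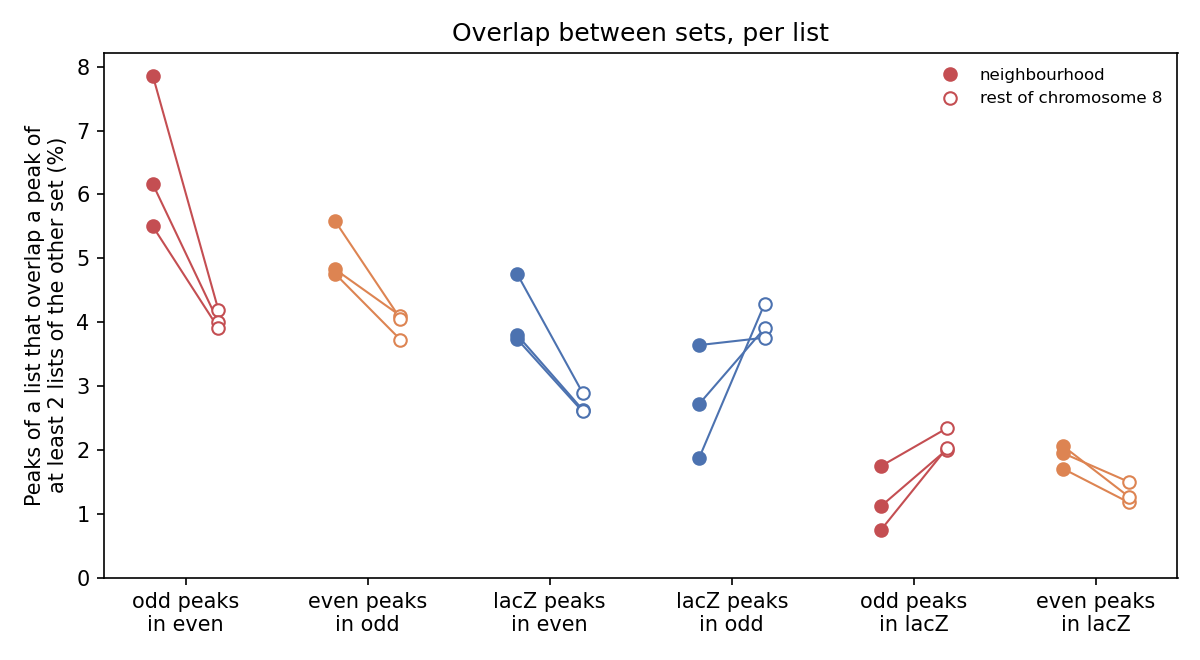
Percent of the peaks of a list that overlap a peak in at least 2 lists of another set, in the neighbourhood (filled, left) and on the rest of chromosome 8 (open, right), with a line for each list. Odd peaks in even lists stand at 5.50% to 7.86% in the neighbourhood and 3.91% to 4.19% on the rest, and lacZ peaks in even lists also lie higher in the neighbourhood, at 3.74% to 4.76%.

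Overlap did not fall steadily with distance from the gene. In odd replicate 2, which held 357 members, 5.68% of the peaks within 1 Mb met the even set, 8.82% at 1 to 2 Mb, 8.77% at 2 to 3 Mb, 2.99% at 3 to 4 Mb and 5.19% at 4 to 5 Mb. Even replicate 3, with 462 members, gave 3.81%, 5.95%, 4.12%, 2.04% and 8.97% over the same steps. In these lists the share within 1 Mb was below that at 1 to 2 Mb, and it rested on 5 and 4 peaks. Counted as regions, 4 of the 46 that had a peak in all 3 odd lists within 1 Mb also held an even peak (8.70%), against 15 of 153 at 1 to 5 Mb (9.80%) and 203 of 2767 on the rest of chromosome 8 (7.34%). Of the regions with a peak in all 3 even lists, 6 of 60 within 1 Mb held an odd peak (10.0%), against 23 of 193 at 1 to 5 Mb (11.9%) and 223 of 3350 on the rest (6.66%).

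Peaks of all lists that overlapped were merged into regions, and a region counted as a candidate contact when at least 5 of the 6 probe lists and no lacZ list had a peak in it. The neighbourhood held 18 candidates among 1316 regions (1.37%), against 1.13% of all 357901 regions on chromosomes 1 to 22 and X. On the rest of chromosome 8 there were 181 (1.05%). Per Mb this came to 1.83 in the neighbourhood, 1.36 on the rest of chromosome 8 and 1.42 over all chromosomes used. The 10 bins of 1 Mb held 0 to 4 candidates, with a median of 1.5, and the other bins of the chromosome 0 to 6, with a median of 1. Among the candidates 14 had a peak in all 6 probe lists, 1.42 per Mb against 0.750 per Mb on the rest of chromosome 8. This contrast was not tested. By side, 12 candidates lay at higher coordinates than the gene and 6 at lower ones.

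No candidate lay next to the gene. Within 0.5 Mb of the window there were 0 among 149 regions, which allows a share of up to 2.01%, above the 1.13% of the genome. Between 0.5 and 1 Mb there were 3, at 1 to 2 Mb 4, at 2 to 3 Mb 5, at 3 to 4 Mb 1 and at 4 to 5 Mb 5. The share of regions that were candidates was 0.984% within 1 Mb, below 1.54% at 1 to 2 Mb, 2.075% at 2 to 3 Mb and 2.155% at 4 to 5 Mb but above 0.360% at 3 to 4 Mb. With peaks merged over gaps of up to 500 bases the count in the neighbourhood was 27, 2.74 per Mb against 2.30 on the rest of chromosome 8. With only the peaks at or above the median fold of their list it was 6, 0.609 per Mb against 0.435.

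The nearest candidates lay at almost the same distance on both sides. On the side of lower coordinates the region from 101495796 to 101496878 lay 503.6 kb from the window. Its fold enrichment, the authors' value per peak of summit pileup over background, was 21.6, 18.6 and 32.7 in odd lists and 23.8, 26.6 and 18.8 in even lists. The odd and even summits were 468 bases apart. On the other side the region from 102664488 to 102665250 lay 514.8 kb away, with a fold of 6.88, 8.45 and 5.29 with odd and 12.35, 8.54 and 6.83 in even lists. Its summits were 445 bases apart. Both sets gave similar folds in each of these regions, but their summits did not coincide. The other candidate within 1 Mb, from 101447256 to 101447943, had a peak in 2 odd lists with a mean fold of 8.84 and in 3 even lists with 35.8 ± 15.2 (SD, n = 3).

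The candidates that ranked highest by fold lay farther out. The first by mean percentile of fold within the probe lists ran from 104273508 to 104274467, 2.12 Mb from the window, with a fold of 178 ± 85.0 with odd and 25.5 ± 10.3 with even probes (SD, n = 3 each). The second, from 106587966 to 106589323, lay 4.44 Mb away with a fold of 230 ± 112 with odd and 24.3 ± 9.13 with even probes. In both, the summits of the sets coincided within 37 and 32 bases, and the odd fold was far above the even fold. Next, the region from 106967118 to 106968290 had 24.6 ± 6.42 with odd and 27.6 ± 6.30 with even probes with summits 395 bases apart. None of the 18 candidates had a mean percentile over 90, and 6 of the 181 on the rest of chromosome 8 had one (3.31%). A count of 0 among 18 cannot be told apart from that share. Their median percentile was 64.85, close to the 63.4 of the candidates on the rest of the chromosome.

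The other high-ranking candidates had a higher mean fold with 1 of the probe sets. Fold enrichment from 99795790 to 99796897 was 125 ± 60.2 with odd and 11.3 ± 3.99 with even probes, and from 98443033 to 98443968 it was 10.7 ± 7.10 with odd and 192 ± 105 with even probes (SD, n = 3 each). The region from 103949113 to 103950261, 1.80 Mb from the window, held the tallest peak of the neighbourhood in each of the 3 odd lists, with a pileup of 385, 1055 and 504. Its fold was 249 ± 139 with odd and 7.795 ± 4.03 with even probes, with summits 10 bases apart. The regions from 104258520 to 104259245 and from 104639607 to 104640567 had 34.0 ± 7.31 and 29.7 ± 10.5 in odd lists and 11.5 ± 4.47 and 10.2 ± 2.20 in even lists. Across the 18 candidates, 7 had odd and even summits within 100 bases (38.9%), against 33.1% of the candidates on the rest of chromosome 8. Those 7 were 0.532% of the regions of the neighbourhood, where 0.363% of all regions met this stricter rule. The closest of the 7 to the gene lay 1.797 Mb away.

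**Figure D5:**
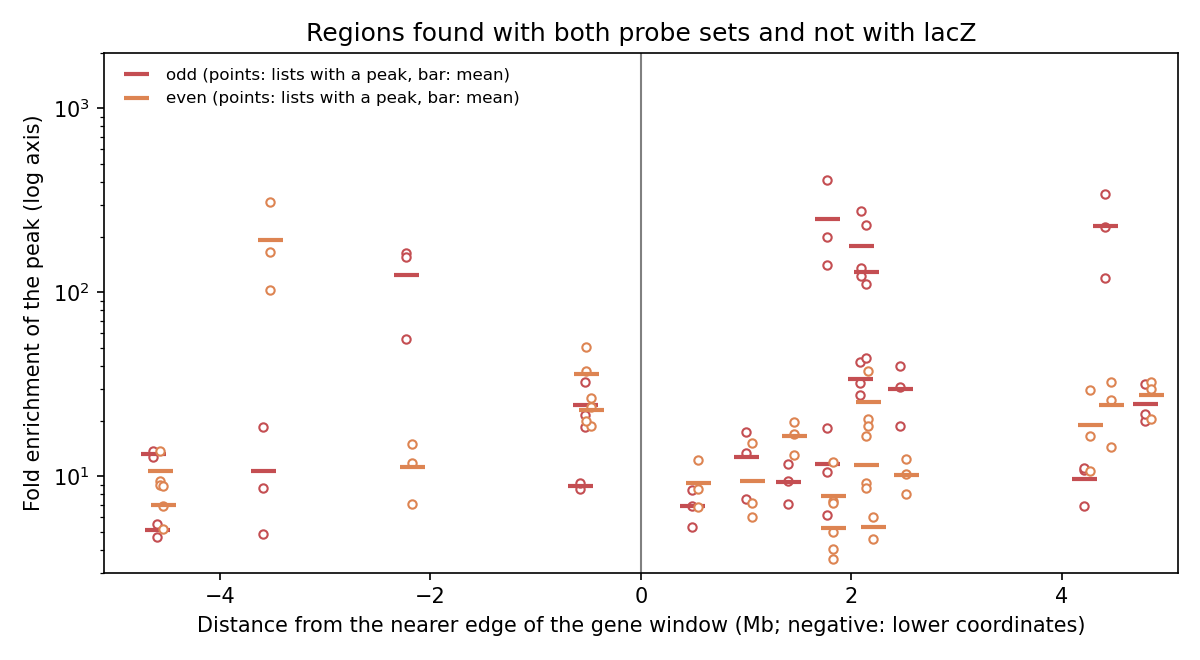
Fold enrichment on a log axis in the 18 regions found with at least 5 of 6 probe lists and no lacZ list, against distance from the nearer edge of the gene window in Mb (points: lists with a peak; bars: mean of odd or even lists; grey line: the window). The regions start 503.6 and 514.8 kb from the window, and the highest means, such as 249 and 230 with odd probes, lie at 1.80 and 4.44 Mb.

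A region with strong peaks in both sets was kept out by 1 weak lacZ peak. It ran from 101421486 to 101422644, 577.8 kb from the window, and was picked out after its values were seen. Its fold was 91.0, 138 and 86.3 in odd lists and 95.9, 191 and 136.5 in even lists, with a mean percentile of 98.9, above that of all 18 candidates. Its pileup was 251, 634 and 242 in odd lists and 418, 780 and 338 in even lists, the tallest peak of the neighbourhood in even replicates 2 and 3. The peak of lacZ replicate 2 had a fold of 4.88 and a pileup of 16, and the other lacZ lists had none. The median odd and even summits were 281 bases apart. In even replicate 1 the tallest member lay elsewhere, from 101666322 to 101667272, with a pileup of 501, in a region without an odd or lacZ peak.

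Regions of the control probes alone were present in every step of distance. Regions with a peak in all 3 lacZ lists and at most 1 probe list numbered 89 in the neighbourhood, 6.76% of its regions, where 6.13% of all regions met this rule. The highest ranked ran from 101501409 to 101502295, 498.2 kb from the window and next to the nearest candidate, with a fold of 66.4, 186 and 56.1 in the lacZ lists and no probe peak. The next were from 97916070 to 97916947 with 46.1, 160 and 45.1, and from 106460740 to 106461600 with 59.4, 102.5 and 43.2. The tallest lacZ peak of the neighbourhood was the same in all 3 lists, with a pileup of 221, 545 and 121, in a region from 103290903 to 103292463. That region also had a peak in all 3 even lists, with a fold of 40.0, 40.2 and 37.6, and in 2 odd lists, with 4.003 and 5.43. No region of the neighbourhood had a peak in all 9 lists, 0 of 1316, which allows up to 0.228%, where 0.0137% of all regions did.

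Regions that recurred with 1 probe set and lacked the other outnumbered the candidates around the gene. Regions with a peak in all 3 odd and no even list numbered 180 (13.7% of the regions of the neighbourhood, where the rule held for 15.1% of all regions). Regions with a peak in all 3 even and no odd list numbered 224 (17.0%, where it held for 18.0% of all). Within 0.25 Mb of the window there were 13 odd-only and 10 even-only regions among 73. A member recurred in both other lists of its set in 86.9%, 55.7% and 49.75% of cases in odd lists, 71.9%, 75% and 54.8% in even lists, and 52.2%, 26.9% and 89.7% in lacZ lists. On the rest of chromosome 8 the shares were 88.8%, 55.0% and 49.3% with odd, 75.95%, 76.0% and 55.3% with even, and 52.6%, 27.1% and 91.7% in lacZ lists, so each list had nearly the same recurrence in both places.

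Peaks with a high fold were more frequent in the neighbourhood than on the rest of chromosome 8 in the 3 odd lists, and the even and lacZ lists went both ways. Of the members, 12.7%, 11.2% and 11.5% were among the top 10% of their list by fold with odd probes, 9.94%, 7.65% and 11.04% with even probes, and 9.24%, 10.1% and 6.54% with lacZ probes. On the rest of chromosome 8 the shares were 9.92%, 9.73% and 9.73% with odd probes, 10.5%, 10.1% and 10.5% with even probes, and 9.74%, 10.05% and 10.2% with lacZ probes. The difference between neighbourhood and rest was not tested. Within 1 Mb of the window the numbers were 5 of 51, 10 of 88 and 9 of 92 in odd lists, 10 of 76, 6 of 83 and 16 of 105 in even lists, and 5 of 46, 9 of 83 and 1 of 23 in lacZ lists. As shares these were 10.3% ± 0.907 with odd, 11.9% ± 4.16 with even and 8.69% ± 3.76 with lacZ probes (SD, n = 3 each). At 1 to 5 Mb they were 12.2% ± 1.18, 8.88% ± 1.02 and 8.56% ± 1.36 for odd, even and lacZ. The sets overlapped within 1 Mb. The median length of a member was 416, 360 and 331 bases in odd lists, 403.5, 410.5 and 372 in even lists, and 427.5, 362 and 456 in lacZ lists, where the rest of chromosome 8 had 389.5, 356 and 348 with odd, 421, 397 and 362 with even, and 426, 367 and 460.5 in lacZ lists.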

How the data were processed

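Peaks of 3 odd, 3 even and 3 lacZ ChIRP-seq samples were used. FastQC, Bowtie2 and the build hg19 are named, without versions, per the submitters' processing notes. The peak caller and its control are not stated there. The columns follow the MACS2 layout, with 1 list for each sample, per the file headers. The authors deposited a pileup and a fold enrichment for each peak. The pileup was read as whole fragments, and no scaling to depth is stated. The fold enrichment was read as a ratio over a background whose source is not stated. The −log10 p-values and −log10 q-values that the authors deposited entered no test.

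Chromosomes 1 to 22 and X were kept. Densities used the 9.85 Mb around the gene and, on the rest of chromosome 8, the 133.3 Mb of 100 kb bins with a peak in any list. Distance was taken from the nearer window edge, and 0.5 was added to counts in ratios of near to far. Bins of 1 Mb with at least 5 peaks per list on average were tested with limma 3.58.1 in R 4.3.3, and other values were computed in Python 3.11.15. The code was tested on simulated data. Named regions were the 10 candidates with the highest mean percentile of fold, the nearest on each side, the 3 highest lacZ-only regions, those in all 9 lists, and the tallest member of each list. Members, measures and rules were chosen with earlier results of these data known. Alternatives were stricter or equally long lists, other backgrounds, distances, overlap rules and bin sizes, a replicate block, and leaving out replicates. Fold in place of pileup was a further alternative. Since separate cultures are not stated, p-values measure only the variation among these samples and may reflect technical spread.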

Additional observations from a re-analysis of the deposited data

Results flagged for a closer look

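The relative density of peaks around the gene went in opposite directions between probe sets. On the log2 scale, the ratio of neighbourhood to rest of chromosome 8 averaged -0.04364 in odd lists, below 0 in 3 of 3, against 0.07096 in even lists, above 0 in 3 of 3. The difference between odd and even lists was -0.11 (two-sided exact permutation p = 0.1, and 3 against 3 lists cannot go lower). The odd lists, at -0.04364, likewise stood against 0.1349 in lacZ lists, which were above 0 in 3 of 3, a difference of -0.18 (exact permutation p = 0.1). Both probe sets target the same RNA, and the part of the oligonucleotides in this difference was not tested.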

How the results depend on the processing

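Relative density of the neighbourhood stayed lower with probes than with lacZ under all 11 alternatives tried. Its unadjusted p was above 0.05 with lists of equal length (-0.064) and without lacZ replicate 3 (-0.11). For odd (-0.18) or even lists alone (-0.064) and without each replicate number (-0.14 to -0.10) the design cannot give a p below 0.05, so these say nothing of a lost call. Density near over far changed sign with equal length (0.14), for odd lists alone (9.04e-05) and with near at 0.5 Mb (0.24), and ran from -0.084 to 0.099 with replicates left out. The density slope changed sign with stronger peaks (-0.046) and equal length (-0.090), and ran from -0.024 to 0.026 with replicates left out. Pileup of neighbourhood over rest changed sign with stronger peaks (0.081). Pileup near over far changed sign with equal length (-0.075) and for odd lists alone (-0.024), and passed with near at 2 Mb (0.33). With fold in place of pileup the near-over-far difference was 0.018 (exact permutation p = 0.940). The slope of log2 fold was 0.0030 per Mb in probe lists and 0.023 per Mb in lacZ lists, a difference of -0.020 (exact permutation p = 0.571). The pileup slope changed sign with equal length (0.012) and ran from -0.055 to 0.0033 with replicates left out. The gain in overlap kept its sign in all 15 alternatives. Its unadjusted p was above 0.05 with 0.78 points for stronger peaks, 1.47 with other chromosomes as background, 0.72 with summits within 100 bases, 0.66 with 50% overlap, and 0.40 with lacZ matched to even lists (chosen after seeing the data). It was 2.40 for odd and 1.02 for even lists alone, where no p below 0.05 is possible, and 1.35 to 2.24 with replicates left out, where only the removal of lacZ replicate 3 could pass. Neither measure passed after adjustment over the 7. The cause of these changes was not tested. Candidates numbered 6 with stronger peaks, 7 with summits within 100 bases and 23 to 32 with a replicate left out. Per Mb these were 0.609, 0.711 and 2.335 to 3.25. On the rest of chromosome 8 the same settings gave 0.435, 0.450 and 1.69 to 2.35 per Mb. With bins of 500 kb 2197 of 5689 were called (38.6%), and 8 of 20 in the neighbourhood (40%). With a replicate left out 456 to 930 bins of 1 Mb were called (15.9% to 32.4%), and 2 to 4 of 10 in the neighbourhood.

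Same-numbered lists correlated between -0.0132 and 0.285 in their deviations, with a median of 0.0289. Differently numbered lists correlated between -0.2669 and 0.1833, with a median of -0.01. These ranges overlapped and the numbers were not taken as pairing, though pairing is not excluded by this. With a replicate block the density difference was -0.12 (exact permutation p = 0.0741) and the overlap gain 1.71 points (exact permutation p = 0.0741), and 1135 bins were called, 3 of them in the neighbourhood. The unknown read depth, the small counts within 1 Mb and the 3 lacZ lists limit what could be detected.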
